A study of Rattus norvegicus with 12 samples.

Results

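The genes described here are 10 transcription factors of endocardial cushion and valve mesenchyme: Twist1, Msx1, Msx2, Sox4, Sox11, Meox1, Foxc2, Prrx1, Nfatc1 and Snai2. Their members on the array were the probe sets whose annotation gives 1 of these symbols and no other. This rule, which uses no measured value, found 21 of 31099 probe sets, for 9 of the 10 genes. No probe set carried the symbol Snai2 alone, so Snai2 was not analysed here. Sox4 had 7 probe sets, Foxc2 and Msx2 had 3 each, Twist1 and Prrx1 had 2 each, and Msx1, Meox1, Nfatc1 and Sox11 had 1 each.

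Tissue RNA from Wistar rats was measured on 12 Affymetrix arrays in 4 groups of 3. The adult valve group was the aortic and pulmonary semilunar valves of adults labelled male, and the neonatal valve group was the same valves taken up to 24 h after birth. The adult aorta group was the proximal vessel of adults labelled male, and the neonatal aorta group was that vessel up to 24 h after birth. No treatment or genotype is named, and both semilunar valves make up 1 sample. The labels do not say that replicates came from separate animals, so each p-value measures the spread between these samples, which may be technical.

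Semilunar valves arise from endocardial cushions of the outflow tract, where endocardial cells lose their contacts and invade a gel-like matrix as mesenchyme. BMP, TGF-beta and Notch signals switch on Twist, Snail and Msx factors in this transition, and calcineurin signalling through NFATc1 in the endocardium is needed for valve growth and remodelling. Sox4 is required for outflow septation and semilunar valve formation in the mouse, and Foxc2 for remodelling of the aortic arch arteries. Several of these factors also act in limb, skull, somite and tumour mesenchyme.

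RefSeq promoters of the rat build GRCr8, from 250 bases before to 50 bases after the start of transcription, were at hand for 5 of the 10 genes: Msx1, Msx2, Prrx1, Sox11 and Twist1. Msx1, Msx2 and Sox11 are shown because these factors differed between groups below, each in its own way. Msx1 lies at chr14:77185552-77185851 on the plus strand, Msx2 at chr17:11102034-11102333 on the plus strand and Sox11 at chr6:49738745-49739044 on the minus strand. Capitals mark CCAAT, the letters bound by the NF-Y complex, or its reverse complement ATTGG.
Msx1: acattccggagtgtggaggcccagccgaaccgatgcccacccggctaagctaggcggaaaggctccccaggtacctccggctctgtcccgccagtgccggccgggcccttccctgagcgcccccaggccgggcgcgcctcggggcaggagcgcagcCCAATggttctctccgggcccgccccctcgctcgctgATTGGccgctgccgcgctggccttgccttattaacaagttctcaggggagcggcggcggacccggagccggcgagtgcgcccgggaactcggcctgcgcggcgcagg
Msx2: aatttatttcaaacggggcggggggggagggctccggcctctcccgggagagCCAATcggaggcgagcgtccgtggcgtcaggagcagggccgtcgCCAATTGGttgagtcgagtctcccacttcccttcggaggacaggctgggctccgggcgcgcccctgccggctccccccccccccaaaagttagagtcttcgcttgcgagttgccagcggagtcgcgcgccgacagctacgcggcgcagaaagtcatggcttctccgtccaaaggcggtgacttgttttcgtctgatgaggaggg
Sox11: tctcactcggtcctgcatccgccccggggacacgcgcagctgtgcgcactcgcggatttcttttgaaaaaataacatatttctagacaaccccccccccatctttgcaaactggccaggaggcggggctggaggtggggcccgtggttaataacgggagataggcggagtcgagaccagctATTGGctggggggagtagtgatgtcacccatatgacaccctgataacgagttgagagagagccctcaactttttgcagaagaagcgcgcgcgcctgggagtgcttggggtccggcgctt
Msx1 held 2 matches, Msx2 held 3, of which 1 on each strand overlap, and Sox11 held 1. Prrx1 and Twist1, not shown, held 1 match each. On either strand, CCAAT stood in 37.5% of the 33469 promoters of this table. The E-box CANNTG, the kind of site Twist proteins bind, stood in 72.1% of promoters and was found once in Msx2 and 2 times in Sox11. The Msx2 E-box overlaps its paired CCAAT letters. The homeodomain core TAATTG (8.20% of promoters), the SOX core ACAAT (33.7%) and TATAAA (14.2%) were found in none of the 5. The NFAT core GGAAA, present in 62.7% of promoters, was found once each in Msx1, Prrx1 and Twist1. These matches describe the letters of these windows only.

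Values are MAS5 signals on a linear scale, set against log2 differences from a limma fit of all 12 arrays. A probe set was tested where its signal exceeded 171.9, the median of all values, on at least 3 arrays. This kept 18552 of 31042 probe sets without controls and 10 of the 21 member probe sets, and 10 member probe sets were at or below 54.6 on at least 6 arrays. That signal was the highest given by 24 probe sets of bacterial control RNAs on 2 arrays that lacked those RNAs. Where every array of a group was at or below it, a log2 difference is a fitted value whose size depends on background, and not a measured fold. For a gene with several, the probe set of highest mean stood for it, and these are called representatives. The representatives of Msx1, Meox1, Prrx1, Sox4, Twist1 and Nfatc1 were tested, and those of Msx2, Sox11 and Foxc2 were not. For these 3 genes a limma fit without the filter, over all 31042 probe sets, is given and named as such.

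Labels and arrays differed in ways that touch these results. The description and tissue entries of 6 samples name another group than their title: those titled adult aorta carry neonatal valve entries, and the reverse. Groups follow the titles, which the source names match; Igf2, a fetal growth factor, gave 339 to 879 on arrays titled adult aorta and 6189 to 8898 on arrays titled neonatal valve. All 6 valve arrays, also the adult ones labelled male, gave 10998 to 18362 for Xist, the RNA of the inactive X chromosome, against 5.08 to 297 on aorta arrays. Eif2s3y of the Y chromosome gave 1.39 to 134 on valve arrays and 1379 to 2557 on aorta arrays, so sex and tissue cannot be told apart. The 3′ to 5′ signal ratio of actin, a sign of RNA degradation, had a geometric mean of 9.92 on valve and 1.66 on aorta arrays (exact permutation test, two-sided, p = 0.0022, the smallest that 6 against 6 can give). The actin ratio also split by age within valve, without overlap, at 10.6 to 14.0 in adults and 7.24 to 8.84 in neonates. That of GAPDH did too, at 2.78 to 5.13 and 1.97 to 2.60, so this ratio and valve age cannot be told apart. The markers of other tissues were high on single arrays. The summed signal of 9 squamous epithelium genes on adult aorta 1 was 194825, with 715 to 797 on adult aortas 2 and 3. That of 12 skeletal muscle genes was 218705 there, where Eln, which encodes elastin, gave 349, with 11900 and 19375 on adult aortas 2 and 3. The squamous sum was 81419 on neonatal aorta 2, and 8 thymocyte genes summed to 37654 on neonatal valve 3. Cardiac muscle genes summed to 122930 to 140546 on neonatal valves and 7445 to 118330 on adult valves. Their sums were 49387 to 79136 on neonatal aortas, and 31093, 1544 and 2333 on adult aortas 1, 2 and 3. The smooth muscle sum was 4825 to 66973 on adult valves and 39427 to 148651 on adult aortas. The summed signal of 9 adipocyte genes was 8668 to 124133 on adult aortas and 31155 to 59030 on neonatal aortas. It was 3453 to 8908 on adult valves and 3237 to 5449 on neonatal valves. Added bacterial control RNA was missing on neonatal aorta 2 and 3.

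**Figure D1:**
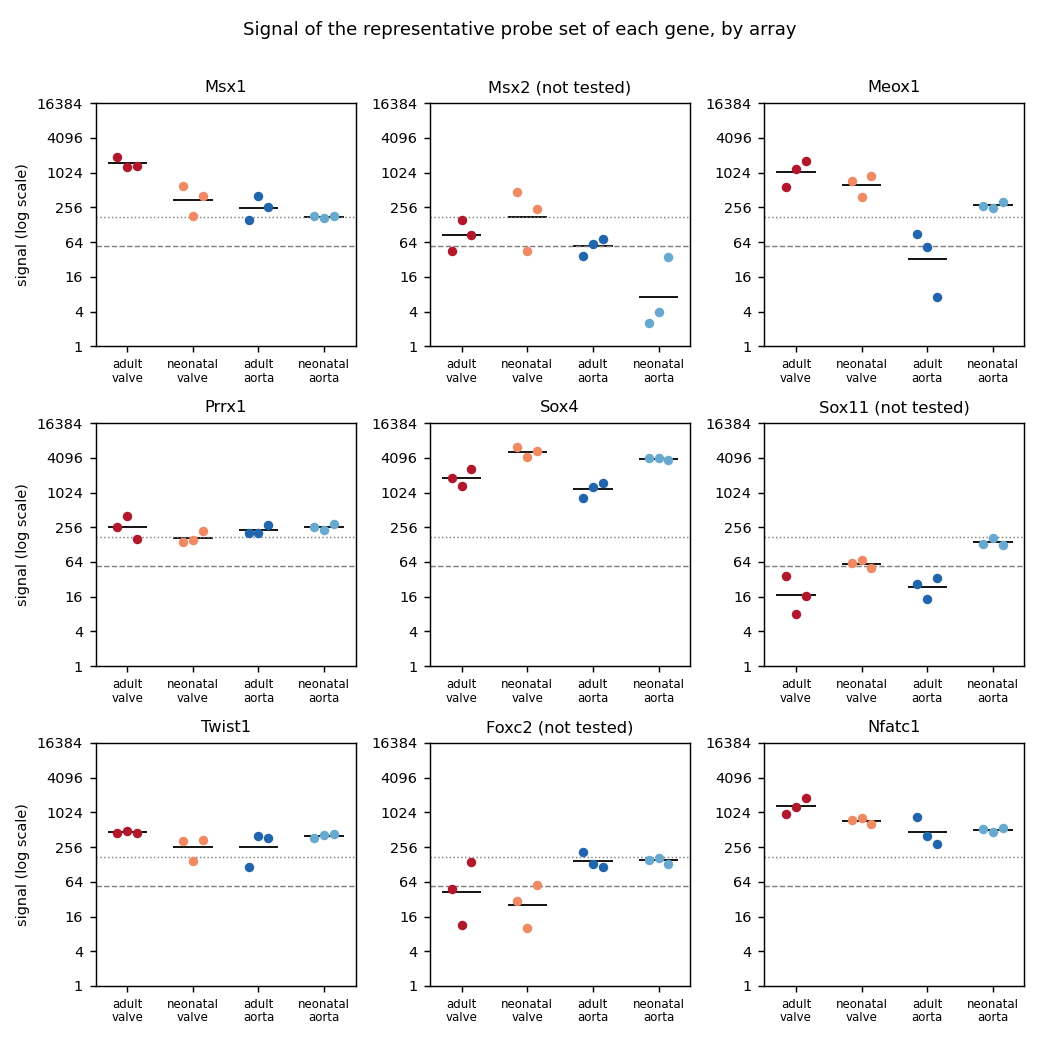
Signal of the representative probe set of each of the 9 measured genes on every array, on a log axis. Points are arrays, black bars geometric means of 3 arrays, the dashed line the highest signal of absent control RNAs (54.6) and the dotted line the median of all values (171.9). Msx1 and Nfatc1 were highest on adult valve arrays, Sox4 was higher on all neonatal than on all adult arrays, and Sox11 stayed below the dotted line everywhere.

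Msx1, a homeobox repressor of cushion and neural crest mesenchyme, was highest in the adult valve. Its probe set 1368302_at gave signals of 1920.0, 1299 and 1349 in adult valves, against 593, 180.5 and 400.1 in neonatal valves. Adult aortas had 155, 396 and 259, and neonatal aortas 183, 165 and 179. Every adult valve array lay above every other array, and the other 3 groups overlapped their neighbours. Msx1 rose 4.28-fold in adult over neonatal valve, a log2 difference of 2.10 ± 0.43 (SE, limma, adjusted p = 0.014). It was 5.97-fold higher in adult valve than in adult aorta (2.58 ± 0.43, limma adjusted p = 0.0011). The valve difference by age rested on 1 array for its call: without adult valve 1 it was 1.92, with a limma adjusted p of 0.051. Between neonatal valve and neonatal aorta the log2 difference was 0.99 ± 0.43 and did not pass (limma adjusted p = 0.097). That comparison passed once neonatal valve 2, the lowest valve array, was left out (1.47, limma adjusted p = 0.017). Adult and neonatal aorta differed by 0.52 ± 0.43 (limma adjusted p = 0.51). In these bulk samples, more cells of a type and more RNA per cell cannot be told apart.

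Msx2, the close relative of Msx1 that acts in cushion, skull and tooth mesenchyme, was dim, and none of its 3 probe sets was tested. Its brightest, 1391953_at, gave 44.0, 155 and 86.1 in adult valves, against 477, 44.4 and 242 in neonatal valves. It gave 36.7, 59.3 and 71.4 in adult aortas, against 2.52, 3.94 and 34.6 in neonatal aortas. Only 2 arrays, both neonatal valve, exceeded the median of all values, and the neonatal tissues did not overlap. The unfiltered limma fit put neonatal valve above neonatal aorta by 4.62 ± 1.03 in log2 (adjusted p = 0.0083). All 3 neonatal aorta signals did not exceed those of absent control RNAs, so this is a fitted difference against background. By age, unfiltered, they were −1.04 in the valve (limma adjusted p = 0.64) and 2.94 ± 1.03 in the aorta (limma adjusted p = 0.14). The other Msx2 probe sets gave 1.09 to 82.1 over all arrays and showed no such split.

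Meox1, a homeobox factor of the somites and an early mesenchymal gene, had the widest range of group means among the 6 tested representatives, 5.02 in log2. Its probe set gave signals of 582, 1195 and 1619 in adult valves, against 728, 388 and 913 in neonatal valves. Adult aortas had 88.5, 51.9 and 7.16, against 266, 252 and 315 in neonatal aortas. The aorta groups did not overlap with each other or with either valve group, and the valve groups overlapped. Adult valve exceeded adult aorta by 5.02 ± 0.76 in log2 (limma adjusted p = 0.00071). With 2 of the 3 adult aorta arrays at the level of absent controls, that fold is imprecise, and the difference was 3.87 when 32 was added to each signal before the log. The order of these aorta arrays is the reverse of their order by smooth muscle sum, and the part of cell make-up was not tested. Meox1 fell by 3.11 ± 0.76 in adult against neonatal aorta (limma adjusted p = 0.033). This call was lost, at limma adjusted p-values of 0.052 to 0.12, without any 1 neonatal aorta array, without adult aorta 2 or without neonatal valve 1, at differences of −3.46 to −3.01. Without adult aorta 3, the lowest array, the call held but the difference was −2.03 (limma adjusted p = 0.034). Adult and neonatal valve differed by 0.71 ± 0.76 (limma adjusted p = 0.60), and neonatal valve and neonatal aorta by 1.20 ± 0.76 (limma adjusted p = 0.25).

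Prrx1, a paired-type homeobox factor of limb, facial and vascular mesenchyme, was flat. Its tested probe set 1384234_at gave 260.1, 406 and 158 in adult valves, against 144, 154 and 217 in neonatal valves. It gave 201, 206 and 284 in adult aortas, against 259, 234 and 290.0 in neonatal aortas. Group means spanned 0.62 in log2, at a pooled SD within groups of 0.41, and each group overlapped its neighbours in the order of levels. The lowest and highest groups, neonatal valve and neonatal aorta, did not overlap (limma adjusted p = 0.18). Prrx1 passed in none of the 4 comparisons of groups, with limma log2 differences from −0.62 ± 0.34 between neonatal tissues to 0.60 ± 0.34 between valves by age. The other Prrx1 probe set, 1375485_at, gave 12.5 to 79.2 and was not tested.

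Sox4, a SOX-family activator of outflow cushion and progenitor cells, was the 1 gene of the 6 tested that passed by age in both tissues. Those comparisons share no group, but both use the spread estimated from all 12 arrays. Its representative 1383137_at gave 1811, 1347 and 2611 in adult valves, against 6221, 4275 and 5469 in neonatal valves. It gave 815, 1298 and 1522 in adult aortas, against 4007, 4031 and 3827 in neonatal aortas. Every neonatal array was above every adult array. Sox4 fell 2.84-fold in adult against neonatal valve, a log2 difference of −1.50 ± 0.29 (limma adjusted p = 0.010). It fell 3.37-fold in adult against neonatal aorta, a difference of −1.75 ± 0.29 (limma adjusted p = 0.0054). Without adult aorta 1 the aorta difference was −1.49 (limma adjusted p = 0.0058). With the arrays lacking added control RNA as a block it was −1.77. That block holds neonatal aorta 2 and 3 and no other array, so neonatal aorta 1 alone then stood for its group. A lost call there cannot tell a batch from the loss of those arrays, and only the difference is given. A list of 19 tested cell cycle genes moved the same way by age: 17 fell in each tissue and 0 rose. The summed signal of these genes was 4585 to 9720 in adult valves and 27938 to 38788 in neonatal valves, and 4165 to 9374 in adult aortas and 24914 to 27035 in neonatal aortas. The part of dividing cells in the Sox4 result was not tested.

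The 7 Sox4 probe sets did not give 1 picture of the tissues. Probe set 1373860_at gave 385, 454 and 571 in adult valves, against 1316, 1753 and 1759.8 in neonatal valves. It gave 281, 361 and 401 in adult aortas, against 1329.5, 1692 and 1712 in neonatal aortas. Its age differences, −1.78 ± 0.23 in valve and −2.19 ± 0.23 in aorta, had limma adjusted p-values of 0.0015 and 0.00057. Probe set 1375123_at gave 8.37, 34.1 and 50.7 in adult valves, against 101, 105 and 196 in neonatal valves, and 275, 185 and 246 in adult aortas, against 740.2, 1143 and 1149.8 in neonatal aortas. Its age differences were −2.39 ± 0.57 in valve (limma adjusted p = 0.027) and −2.09 ± 0.57 in aorta (limma adjusted p = 0.0495). It was also lower in valve than aorta, by −3.25 ± 0.57 between adult tissues (limma adjusted p = 0.0015) and −2.96 ± 0.57 between neonatal tissues (limma adjusted p = 0.0030). The representative differed between tissues by 0.66 ± 0.29 in adults (limma adjusted p = 0.089) and 0.41 ± 0.29 in neonates (limma adjusted p = 0.29). All 3 adult valve signals of 1375123_at were at the absent level, so its differences involving adult valve are not measured folds. Probe set 1384000_at did not pass by age in valve (−0.54 ± 0.57, limma adjusted p = 0.59) or aorta (−1.77 ± 0.57, limma adjusted p = 0.082). The 3 untested Sox4 probe sets were dim, at 9.70 to 180 over all arrays. In the unfiltered limma fit 1375257_at differed by age by 0.74 ± 0.46 in valve (adjusted p = 0.43) and 0.77 ± 0.46 in aorta (adjusted p = 0.40). Probe set 1383989_at was lower in adult than neonatal valve by −3.07 ± 0.54 (unfiltered limma adjusted p = 0.0091), with adult signals at the absent level, and differed by −0.05 ± 0.54 in aorta (adjusted p = 0.97). Probe set 1393571_at passed in neither tissue, at −1.47 ± 0.76 in valve (unfiltered limma adjusted p = 0.32) and −1.26 ± 0.76 in aorta (adjusted p = 0.40). Where on the transcript each probe set lies was not analysed here, so a level of Sox4 between tissues depends on the probe set chosen.

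**Figure D2:**
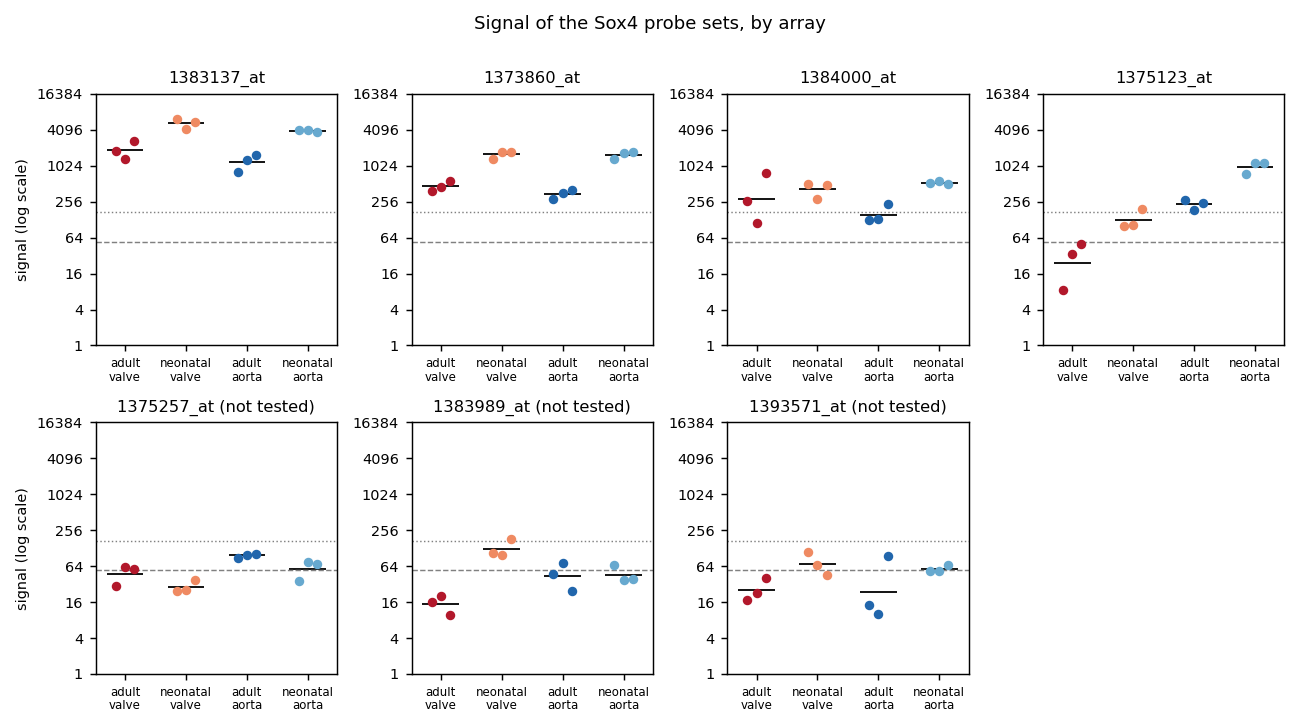
Signal of each of the 7 Sox4 probe sets on every array, on a log axis, with points for arrays, black bars for geometric means, a dashed line at the highest absent control signal (54.6) and a dotted line at the median of all values (171.9). Probe sets 1383137_at and 1373860_at split by age in both tissues, while 1375123_at was also lower on valve than on aorta arrays.

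Sox11, the sister of Sox4 with overlapping roles in the outflow tract, was measured by 1 dim probe set, 1387275_at. It gave 36.6, 8.06 and 16.5 in adult valves, against 60.4, 70.1 and 49.4 in neonatal valves. It gave 26.2, 14.4 and 34.3 in adult aortas, against 133, 164 and 128 in neonatal aortas. Adult and neonatal arrays did not overlap in either tissue, but all 6 adult signals were within the range of absent control RNAs and no array exceeded the median of all values. In the unfiltered limma fit Sox11 fell by 2.58 ± 0.58 in adult against neonatal aorta (adjusted p = 0.029). The valve difference by age, −1.81 ± 0.58, did not pass (limma adjusted p = 0.099). Neither did those between neonatal tissues, −1.25 ± 0.58 (limma adjusted p = 0.15), or adult tissues, −0.47 ± 0.58 (limma adjusted p = 0.57).

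Twist1, the basic helix-loop-helix factor that keeps cushion mesenchyme migrating and dividing, passed in no comparison by its representative. Probe set 1378165_at gave 443, 497 and 450.4 in adult valves, against 324, 148 and 338 in neonatal valves. It gave 117, 401 and 362 in adult aortas, against 364, 410.3 and 430.3 in neonatal aortas. Adult valve arrays were above neonatal valve arrays without overlap, at a log2 difference of 0.87 ± 0.45 (limma adjusted p = 0.24). The low adult aorta value is array 1, which had high squamous and skeletal muscle sums. Adult and neonatal aorta differed by −0.64 ± 0.45 (limma adjusted p = 0.43), and by −0.07 without that array (limma adjusted p = 0.91). Adult valve and adult aorta differed by 0.85 ± 0.45 (limma adjusted p = 0.16), and by 0.28 without it (limma adjusted p = 0.52). The other Twist1 probe set, 1387750_at, gave 37.4, 46.2 and 10.9 in adult valves, against 8.82, 9.58 and 17.1 in neonatal valves. It gave 12.2, 183 and 139.6 in adult aortas, against 141, 115 and 115 in neonatal aortas. In the unfiltered limma fit it was lower in neonatal valve than neonatal aorta by −3.45 ± 0.92 (adjusted p = 0.020), where all valve signals were at the absent level. The representative differed there by −0.66 ± 0.45 (limma adjusted p = 0.28).

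Foxc2, a forkhead factor of outflow mesenchyme, arch arteries and lymphatic valves, had low signal in valves on all 3 probe sets. Its representative by mean, 1377487_at, was not tested, while 1370795_at was. Probe set 1370795_at gave 24.2, 9.41 and 2.16 in adult valves, against 11.5, 9.23 and 27.6 in neonatal valves. It gave 59.6, 189 and 154 in adult aortas, against 236, 329 and 357 in neonatal aortas. Every valve signal lay below every aorta signal and did not exceed those of absent control RNAs. The log2 difference was −3.93 ± 0.91 between adult valve and adult aorta (limma adjusted p = 0.0066) and −4.41 ± 0.91 between neonatal valve and neonatal aorta (limma adjusted p = 0.0041). By age it was −0.86 ± 0.91 in the valve (limma adjusted p = 0.59) and −1.33 ± 0.91 in the aorta (limma adjusted p = 0.42), though adult and neonatal aortas did not overlap. Every aorta array but adult aorta 1 had an adipocyte sum above those of all valve arrays, and the part of fat was not tested.

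The untested Foxc2 probe sets gave the same direction between neonatal tissues. Probe set 1377487_at gave 49.0, 11.5 and 142 in adult valves, 29.9, 10.2 and 56.5 in neonatal valves, 207, 132 and 116 in adult aortas, and 156, 167 and 132 in neonatal aortas. Its neonatal difference in the unfiltered limma fit was −2.55 ± 0.82 (adjusted p = 0.047), and its adult one, where the tissues overlapped, did not pass (−1.77, limma adjusted p = 0.13). Probe set 1375607_at gave 29.2, 20.7 and 12.3 in adult valves, 10.9, 15.1 and 25.3 in neonatal valves, 8.79, 43.3 and 67.7 in adult aortas, and 134, 182 and 247 in neonatal aortas. It was lower in neonatal valve than neonatal aorta by −3.50 ± 0.73 (unfiltered limma adjusted p = 0.0059), with every valve signal at the absent level. Its adult tissues overlapped and did not pass (−0.60 ± 0.73, unfiltered limma adjusted p = 0.57).

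**Figure D3:**
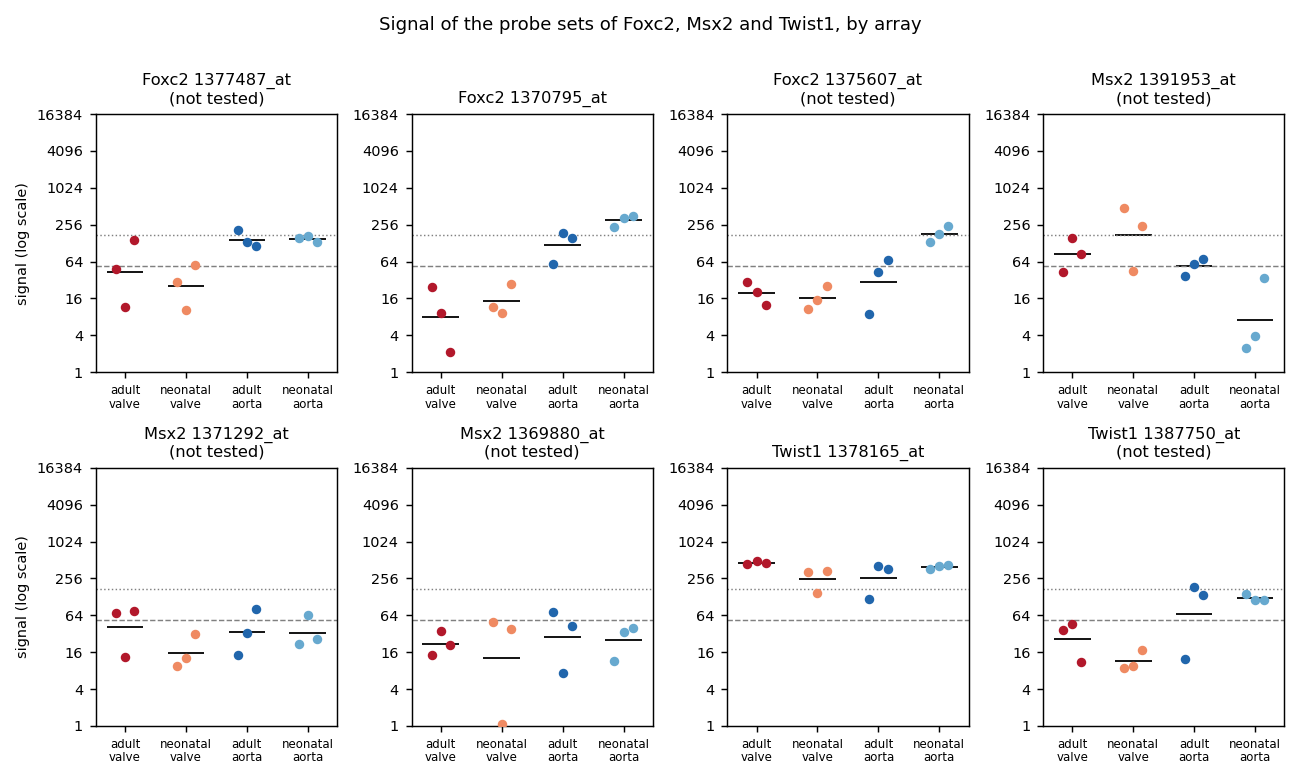
Signal of every Foxc2, Msx2 and Twist1 probe set on every array, on a log axis, with points for arrays, black bars for geometric means, a dashed line at 54.6 (highest absent control signal) and a dotted line at 171.9 (median of all values). Foxc2 was near or below the dashed line on most valve arrays, Msx2 exceeded the dotted line on 2 neonatal valve arrays, and Twist1 probe set 1387750_at was below the dashed line on all valve arrays.

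Nfatc1, the calcineurin-dependent factor of valve endocardium, was higher in adult valve than adult aorta. Its probe set gave 970.1, 1274 and 1819 in adult valves, against 755, 803 and 632 in neonatal valves. It gave 862, 397 and 294 in adult aortas, against 537, 473 and 539 in neonatal aortas. No adult valve array was below any other array, and neonatal valves were all above neonatal aortas. Adult valve exceeded adult aorta 2.82-fold, by 1.49 ± 0.36 in log2 (limma adjusted p = 0.0080). The high adult aorta array was again array 1, and without it the difference was 1.94 (limma adjusted p = 0.00063). In a fit of these 2 groups alone the call was lost (limma adjusted p = 0.060). The age difference in valve, 0.85 ± 0.36, did not pass (limma adjusted p = 0.16), but did without adult aorta 1, which enters through the shared spread (limma adjusted p = 0.037). Age in the aorta (−0.15 ± 0.36, limma adjusted p = 0.85) and tissue in neonates (0.50 ± 0.36, limma adjusted p = 0.32) did not pass either. The summed signal of 10 endothelial genes was 13004, 20073 and 39215 on the same adult valve arrays and 5134 to 10842 on adult aortas. It ranks the adult valve arrays as Nfatc1 does, but not the adult aortas, where arrays 1, 2 and 3 had sums of 5516, 10842 and 5134. Neonatal valves summed to 9895 to 14827 and neonatal aortas, with lower Nfatc1, to 12193 to 15687. The part of endothelial content was not tested.

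Counted over the 6 tested genes, members by their representatives passed in both directions by age and in 1 direction between adult tissues. With all 10 tested member probe sets counted, 3 were higher and 2 lower between adult tissues, and 0 higher and 2 lower between neonatal tissues (Foxc2 1370795_at and Sox4 1375123_at both times lower in valve). Of all 18552 probe sets tested, 6891 passed between adult and 6043 between neonatal tissues, in either direction. In adult against neonatal aorta, 0 rose and 2 fell (Sox4 and Meox1), where 1.69% of 10391 genes, each by its representative, rose and 6.01% fell. In adult against neonatal valve, 1 rose (Msx1) and 1 fell (Sox4), where 4.15% of those genes rose and 6.01% fell. In adult valve against adult aorta, 3 were higher (Meox1, Msx1 and Nfatc1) and 0 lower, where 17.2% of those genes were higher and 15.8% lower. In neonatal valve against neonatal aorta, 0 of 6 passed in limma, with 1 at an unadjusted p under 0.05, where 12.3% of those genes were higher and 15.0% lower. Median log2 differences over the 6 genes were −0.42 for aorta by age, 0.78 for valve by age, 1.17 for adult tissues and 0.45 for neonatal tissues. Over all tested genes these medians were −0.11, −0.05, −0.01 and −0.06. Without the filter, the probe sets lower with age were 2.80% in the aorta and 2.57% in the valve. Between neonatal tissues, 7.63% were then higher and 13.1% lower in valve. Array medians were lower on valve arrays, by −0.39 in log2 between adult and −0.33 between neonatal tissues. With each array centred on its median, 5 of 6 genes were higher in adult valve than adult aorta (Twist1 by 1.24 and Sox4 by 1.05 added), and Msx1 was higher in neonatal valve (1.33, limma adjusted p = 0.045).

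**Figure D4:**
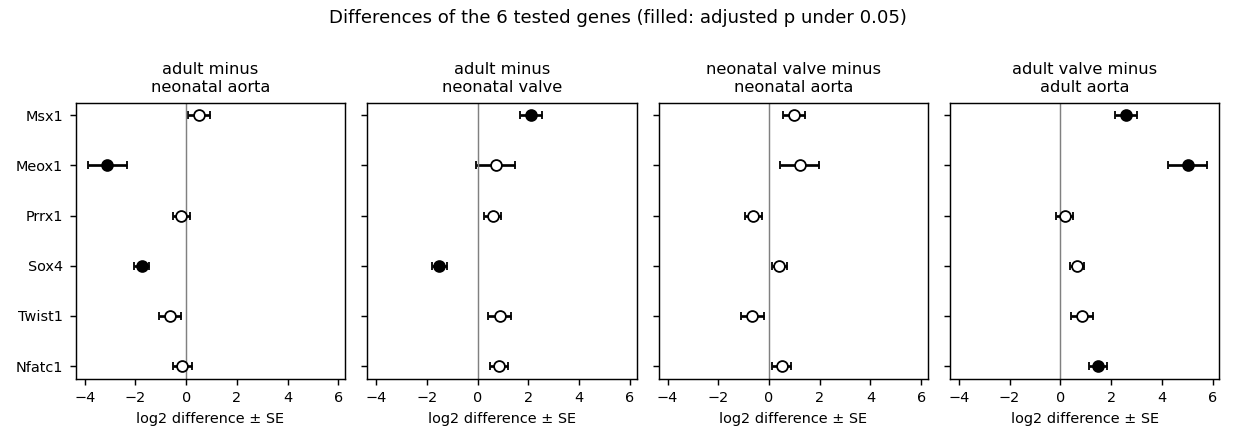
Log2 difference of each of the 6 tested genes in the 4 comparisons of groups; bars are standard errors of the limma fit, and filled points had an adjusted p under 0.05. Sox4 is filled and negative in both comparisons by age, and Meox1, Msx1 and Nfatc1 are filled and positive in adult valve minus adult aorta.

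The difference between valve and aorta in their change with age (valve minus aorta) was positive for all 6 tested representatives. None passed in limma, where 0.0577% of 10391 genes by their representative did. The share of all genes with a positive difference is not given here. Some other member probe sets were negative, among them tested Sox4 1375123_at (−0.30 ± 0.81). In the unfiltered fit, Msx2 1391953_at was at −3.98 ± 1.46 and Sox4 1383989_at at −3.02 ± 0.76 (limma adjusted p = 0.37 and 0.21). The representatives of Foxc2 and Sox11 were positive there, at 0.78 and 0.77. By the tested representatives, it was 3.82 ± 1.08 for Meox1 (limma adjusted p = 0.22), 1.58 ± 0.61 for Msx1 (adjusted p = 0.35) and 1.51 ± 0.63 for Twist1 (adjusted p = 0.38). Each of these had an unadjusted p under 0.05. It was 1.00 ± 0.51 for Nfatc1, 0.79 ± 0.48 for Prrx1 and 0.25 ± 0.40 for Sox4. The Msx1 and Meox1 calls in 1 tissue by age are therefore not shown to differ from the other tissue. The median over the 6 was 1.26, against 0.06 over all genes.

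The genes whose centred profile over the 12 arrays lay nearest to a member were found by root-mean-square difference in log2 among 10385 other genes. For Sox4 these were Nrep (0.23), C2h4orf46 (0.30) and Rfc4 (0.32), against a spread of 0.91 of Sox4 about its own mean. Msx1, with a spread of 1.27, was nearest to Abi3bp (0.48), RragB (0.51) and Arhgap6 (0.52). Meox1 had none close, with Myzap at 0.84, Ildr2 at 0.96 and Rhpn2 at 0.99 against its own 2.11. For Nfatc1, at 0.70, they were Tmem41b (0.23), Erlin1 (0.27) and Gskip (0.29).

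The lists that follow are counts of genes by their representatives, to be read against the shares of all 10391 genes. Those were 1.69% higher and 6.01% lower by age in aorta, 4.15% and 6.01% by age in valve, 12.3% and 15.0% in neonatal valve against aorta, and 17.2% and 15.8% in adult valve against aorta. Among 9 tested paralogs of the members, 1 fell by age in aorta and none passed in valve, and 5 were lower in neonatal valve than neonatal aorta. Snai1, the Snail factor of cushion transition and the measured relative of Snai2, gave 124, 366 and 188 in adult aortas, against 439, 518 and 653 in neonatal aortas, and fell by 1.37 ± 0.36 (limma adjusted p = 0.041). Twist2 gave 2.62, 32.2 and 1.79 in neonatal valves, against 254, 183 and 272 in neonatal aortas (fitted difference −5.45 ± 1.38, limma adjusted p = 0.012), with every valve signal at the absent level. Foxc1, which shares roles with Foxc2, gave 77.0, 43.2 and 37.1 in neonatal valves, against 149, 398 and 407 in neonatal aortas (−2.54 ± 0.58, limma adjusted p = 0.0069). Prrx2 and Nfatc4 were lower there too, by −1.78 ± 0.43 and −1.74 ± 0.33 (limma adjusted p = 0.0091 and 0.0028). Between adult tissues 1 paralog was higher in valve and 2 were lower. The median over the 9 was −1.15 between neonatal and 0.04 between adult tissues.

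Of 24 other cushion and valve transcription factors tested, 4 fell and 0 rose by age in aorta, 2 rose and 0 fell by age in valve, 3 were higher and 1 lower in neonatal valve than aorta, and 6 were higher and 1 lower in adult valve than aorta. The neonatal 3 of 24 is near the share of all genes, 12.3%. Hand2, an outflow and limb factor, gave 371, 508 and 657 in adult valves, against 28.8, 52.8 and 45.4 in adult aortas (fitted difference 3.60 ± 0.30, limma adjusted p = 4.1e-05), where every aorta signal was at the absent level. Gata4, a cardiac and cushion factor, gave 567, 1166 and 1998 in adult valves, against 71.7, 64.2 and 108 in adult aortas (3.79 ± 0.42, limma adjusted p = 0.00016). It was also higher in neonatal valve than neonatal aorta, by 2.61 ± 0.42 (limma adjusted p = 0.0011). Cardiac muscle sums were higher in neonatal valve too, at 122930 to 140546 against 49387 to 79136 in neonatal aorta. On adult valves 1, 2 and 3, where Gata4 rose in that order, these sums were 19918, 118330 and 7445. The part of cardiac muscle in the Gata4 result was not tested. In the valve by age, Klf2, a flow-responsive endothelial factor, rose by 1.73 ± 0.37 (limma adjusted p = 0.017) and Scx, a tendon and valve factor, by 1.45 ± 0.36 (limma adjusted p = 0.032). In the aorta by age, Gata6 fell by 2.60 ± 0.60 (limma adjusted p = 0.025). Of 6 tested bHLH partners and Id inhibitors, 1 fell by age in aorta and none passed in valve. Id3, an inhibitor of bHLH factors, fell by 2.26 ± 0.44 in adult against neonatal aorta (limma adjusted p = 0.013). This list had 1 gene higher and 3 lower in neonatal valve than aorta, and 2 higher and 1 lower in adult valve than aorta.

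Upstream of the members, 13 cushion ligands were tested: 0 passed by age in either tissue, 2 were higher and 3 lower in neonatal valve than aorta, and 3 were higher and 2 lower in adult valve than aorta. Of all genes, 12.3%, 15.0%, 17.2% and 15.8% were. Bmp2, a myocardial signal for cushion formation, was higher in adult valve than adult aorta by 1.91 ± 0.47 (limma adjusted p = 0.0085). The 2 lower ligands there were Tgfb1 and Hbegf. Tgfb1 gave 4.58, 3.11 and 26.9 in adult valves, all at the absent level, against 230, 487 and 499 in adult aortas (fitted difference −5.72 ± 0.82, limma adjusted p = 0.00053). Hbegf was lower by −1.44 ± 0.33 (limma adjusted p = 0.0064). Of 20 receptors and signal carriers, 1 fell by age in aorta, 1 rose and 1 fell by age in valve, 2 were higher and 1 lower in neonatal valve, and 3 were higher and 0 lower in adult valve. Bmpr2, a BMP receptor, was higher in valve than aorta by 2.13 ± 0.19 in adults and 1.50 ± 0.19 in neonates (limma adjusted p = 4.85e-05 and 0.000288). Notch1 was higher in adult valve by 1.88 ± 0.52 (limma adjusted p = 0.015). Of 12 calcineurin and NFATc1 pathway genes, 0 passed by age, 3 were higher and 1 lower in neonatal valve, and 2 were higher and 4 lower in adult valve. Rcan1, a calcineurin inhibitor that NFATc1 induces, was lower in adult valve than adult aorta by −2.84 ± 0.70 (limma adjusted p = 0.0094), while Nfatc1 itself was higher there.

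Downstream, 23 matrix and transition effectors were tested. By age, 1 rose and 5 fell in aorta, and 1 rose and 6 fell in valve. Tnc, a matrix glycoprotein of moving mesenchyme, fell in both tissues, with differences of −4.42 ± 0.40 in valve and −2.54 ± 0.40 in aorta (limma adjusted p = 0.00030 and 0.0046). Cthrc1, a secreted collagen-linked protein, fell in both as well, with −5.73 ± 0.64 in valve and −5.65 ± 0.64 in aorta (limma adjusted p = 0.00086 and 0.00083). Between tissues, 2 effectors were higher and 3 lower in neonatal valve, and 4 were higher and 1 lower in adult valve, where 12.3%, 15.0%, 17.2% and 15.8% of all genes were. Vcan, the cushion proteoglycan versican, was higher in adult valve than adult aorta by 2.35 ± 0.80 (limma adjusted p = 0.039), where adult aorta 1 gave 231 against 2476 and 3816 on the other adult aortas. None of these 7 lists had a gene that passed in the comparison of age differences.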

How the data were processed

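Trizol and RNeasy columns were used for RNA, which was labelled by in vitro transcription, per the labels' protocols. The table deposited by the authors holds intensity, 1 linear signal per probe set from MAS5 in Expression Console, per the submitters' processing notes. Their scaling target was not stated there. Array means, trimmed by 2% at both ends, were 500.1 to 500.2. Of 31042 probe sets without controls, 20826 carried 1 symbol in the platform annotation, 436 several and 9780 none.

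Signals under 1 were set at 1 and log2 was taken. One mean per group (by title) was fitted with limma 3.58.1 in R 4.3.3 (lmFit and trended eBayes, with 8 residual degrees of freedom). Tests were two-sided, with Benjamini-Hochberg adjustment over the 18552 probe sets tested (59.8%) and a threshold of 0.05. The fit was tested on simulated data. Every member was named; list genes were taken from up to 4 per list and comparison by smallest adjusted p, and those printed were picked after their values were seen. Nearest genes are given for tested members with group means spanning at least 1 in log2. The members and lists were chosen with earlier results of these data known. Precision is limited by 3 arrays per group.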

Additional observations from a re-analysis of the deposited data

How the results depend on the processing

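Of 149 repeats of the 7 called gene differences under other settings, 138 kept their call, 11 lost it and 0 changed sign. Groups by the tissue entry were not among these repeats. Many repeats changed only the filter, the trend or an array outside the comparison, which leaves the difference as it was, so its sign could not change. The lost calls include those of Sox4 and Meox1 in aorta by age with the control RNA block, which leaves neonatal aorta 1 alone in its group. For adult against neonatal aorta (2 genes called of 6), the count was 1 with the replicate block, 1 in a fit of those 2 groups alone, 0 with groups by the tissue entry and 4 with every member probe set counted. It was 1 to 2 with single arrays left out. Meox1 lost its call there with the replicate block and with 2 groups alone. Its difference with the control RNA block, where neonatal aorta 1 alone stood for its group, was −3.05. For adult against neonatal valve (2 called), it was 4 with every probe set and 1 to 3 with single arrays left out. For neonatal valve against neonatal aorta (0 called), it was 2 without the filter, 1 with median-centred arrays, 2 by the tissue entry, 2 in a fit of those 2 groups alone, 2 with every probe set (both lower), and 0 to 1 with single arrays left out. For adult valve against adult aorta (3 called), it was 5 with median-centred arrays, 5 with every probe set (3 higher, 2 lower), 2 by the tissue entry (1 higher, 1 lower), 2 in a fit of those 2 groups alone, and 3 to 4 with single arrays left out. The difference of age differences had 0 called in limma under every setting run. Calls over all probe sets tested changed with the setting too. For aorta by age, 1357 became 1128 (replicate block), 811 (2 groups alone) and 6043 (tissue entry). Between neonatal tissues, 6043 became 6453 (median-centred arrays), 9008 (2 groups alone) and 1357 (tissue entry). Between adult tissues, 6891 became 7572, 3646 and 1709 in the same order. By the tissue entry, adult aorta and neonatal valve arrays trade places, so each of these comparisons takes the arrays of another. Its counts are therefore main counts under another name: 6043 is that between neonatal tissues, 1357 that of aorta by age and 1709 that of valve by age. The causes of the other changes were not tested. Correlations of deviations between arrays sharing a replicate number ran from −0.31 to 0.24. Arrays of different numbers were not compared in this way, so these values cannot show whether replicate numbers pair the samples. Leaving out adult aorta 1, neonatal aorta 2 and neonatal valve 3 together, chosen after seeing the data, gave 2, 2, 0, 3 and 0 called. Signals near those of absent control RNA limit Msx2, Sox11, Foxc2, adult aorta Meox1 and adult valve Sox4 1375123_at.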
